A study of Mus musculus with 8 samples.

Results

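The interleukin-1 (IL-1) genes read on this plate were *Il1a* and *Il1b*, which encode the ligands IL-1 alpha and IL-1 beta, and *Il1r1*, which encodes the receptor that signals for both. They were chosen by name and are 3 of the 84 pathway genes of a quantitative PCR plate for Toll-like receptor (TLR) signalling. All 3 gave a reading in every column. Whole spleens came from C57BL/6 wild-type mice, from TLR7-/- mice and from IFNAR-/- mice, which are labelled as lacking the R848 receptor TLR7 and the type I interferon receptor. Each strain received either R848 (resiquimod), a small-molecule agonist of TLR7, at 1 mg per kg per day for 7 days, or PBS (Mock) for the same time. The series holds 8 samples, each of RNA pooled from 3 mice. For wild type there were 2 experiments per treatment, known here only through their mean, and for each deficient strain 1. The sources used here give neither the age of the mice nor the background of the deficient strains.

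IL-1 alpha and IL-1 beta bind the same receptor, which then recruits an accessory chain and the adaptor MyD88. From MyD88 the signal runs through IRAK kinases and TRAF6 to NF-kB and the MAP kinases, a route that most TLRs share. *Il1b* is known as a gene that monocytes, macrophages and neutrophils switch on after TLR stimulation, and its product is cut to the active form before release. IL-1 alpha is active without that cut and acts also as an alarm signal from damaged cells, while IL-1R1 is carried by many stromal cells and by some lymphocytes.

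Levels are delta-Ct values in cycles: the cycle at which a gene crossed the detection threshold (Ct) less the average Ct of 3 reference genes, *Hprt1*, *Hsp90ab1* and *Gapdh*. A lower delta-Ct is a higher transcript level, and 1 cycle is a 2-fold difference. A response is how far delta-Ct lay below its Mock value under R848, a log2 difference, and 2-fold is used below as a mark of size. There is 1 value per group, with no replicate error and no test, so the words higher and lower refer to these pools and no further. Ct values above 35 were set to 35, which puts a floor under each column.

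The reference genes came up late in 2 of the columns, at a mean Ct of 21.85 in wild-type Mock and 22.57 in IFNAR-/- Mock. The other columns had 19.90 in TLR7-/- Mock, 19.37 in TLR7-/- R848, 20.07 in IFNAR-/- R848 and at most 18.33 in wild-type R848. The lowest detectable level was therefore a delta-Ct of 13.15 in wild-type Mock and 12.43 in IFNAR-/- Mock, against 14.93 or more in the columns where it is known apart from these. *Tlr7* itself was read at 9.20 and 9.33 in TLR7-/- Mock and R848, and at 12.00 and 9.47 in wild type. Whether its primers lie inside the deletion is unknown here, so neither this reading nor any other on the plate, which lacks *Ifnar1* and *Ifnar2*, can check a strain label.

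The ligand genes are neighbours on mouse chromosome 2, with no other protein-coding gene between them in the RefSeq annotation (GRCm38.p6), and *Il1r1* lies on chromosome 1. The 250 bases upstream of each ligand gene's RefSeq start are shown so that the sequences of these neighbours, whose responses differed in size, can be compared. Capitals mark TATAAA in both and TGACTCA, a match to the AP-1 motif, in *Il1a*. The *Il1a* window is chr2:129309973-129310222 and the *Il1b* window chr2:129371140-129371389, both on the minus strand and written 5′ to 3′.
Il1a: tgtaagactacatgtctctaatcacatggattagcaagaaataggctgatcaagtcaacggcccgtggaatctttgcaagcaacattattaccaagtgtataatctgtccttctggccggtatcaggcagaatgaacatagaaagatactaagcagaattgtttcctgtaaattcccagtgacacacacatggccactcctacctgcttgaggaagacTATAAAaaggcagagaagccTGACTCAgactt
Il1b: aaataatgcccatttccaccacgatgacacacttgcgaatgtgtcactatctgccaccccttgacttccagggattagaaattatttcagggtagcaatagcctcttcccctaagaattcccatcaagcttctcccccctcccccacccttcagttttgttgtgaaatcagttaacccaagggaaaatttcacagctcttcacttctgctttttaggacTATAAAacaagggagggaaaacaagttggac
TATAAA began 32 bases before the start of *Il1a* and 31 before that of *Il1b*, and 12.4% of 32851 mouse promoter windows of this length hold it on either strand. TGANTCA, found in *Il1a* 12 bases before the start, occurs in 6.75% of windows. The NF-kB motif (GGGA and CC with 4 bases between, 17.6% of windows), the interferon-stimulated response element (GAAA and again GAAA, 2 bases apart, 2.98%), TTCNNNGAA (gamma-interferon-activated site, 7.02%) and TTGCNNAA (C/EBP, 9.56%) had no match in either ligand window. The windows of *Il1r1*, which has 2 starts in the table, held a C/EBP match, TTGCTGAA, and no TATAAA. A long noncoding RNA gene overlaps each ligand gene in the annotation (*Gm14023* at *Il1a*, *Il1bos* at *Il1b*). Primer positions and strand specificity are unknown here.

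Of the ligands, *Il1b* (UniGene Mm.222830, well C03) was read at far higher levels than *Il1a* (Mm.15534, well C02). *Il1b* had a delta-Ct of 6.30 in wild-type Mock and of 5.97 in the R848 column of that strain. In TLR7-/- spleen it was 4.40 in Mock and 4.83 in R848, and in IFNAR-/- spleen 5.93 in Mock and 4.83 in R848. TLR7-/- Mock was thus the highest column, both wild-type columns and IFNAR-/- Mock were the lowest, and the whole span was 1.90 cycles, or 3.73-fold. For comparison, the median span over the 6 columns was 2.42 cycles among the 69 pathway genes never at the Ct limit.

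*Il1a* was among the rarer transcripts of the plate. Wild type gave a delta-Ct of 12.70 in Mock and 11.42 in R848. In TLR7-/- spleen it was 9.60 in Mock and 9.43 in R848, and in IFNAR-/- spleen 11.53 in Mock and 9.63 in R848. The 3 highest columns lay within 0.20 cycles of each other, and the other 3 lay far below, over a whole span of 3.27 cycles (9.65-fold). In wild-type Mock the mean Ct of *Il1a* was 34.55, only 0.45 cycles from the limit. Since neither experiment could be read above 35, each gave a value between 34.10 and 35, and 1 of them may have been at the limit. In IFNAR-/- Mock its Ct was 34.10, while it was at most 29.75 in the remaining columns.

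The receptor gene *Il1r1* (Mm.896, well C04) lay between the ligands in every column. Wild type gave 9.05 in Mock and 8.37 in R848. It was 8.00 and 7.63 in TLR7-/- Mock and R848, and 10.23 and 8.13 in IFNAR-/- Mock and R848. IFNAR-/- Mock stood lowest and TLR7-/- R848 highest, 2.60 cycles or 6.06-fold apart. Relative to the median pathway gene of each column, however, its span was 0.725 cycles, where that of *Il1a* was 2.075 and that of *Il1b* 2.025. The 3 R848 columns of *Il1r1* lay within 0.74 cycles, the 3 Mock columns within 2.23. The spans between neighbouring columns have no replicate spread to be set against, so the order of near neighbours, such as the 4.83 that *Il1b* shows in both deficient strains with R848, is not resolved.

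**Figure D1:**
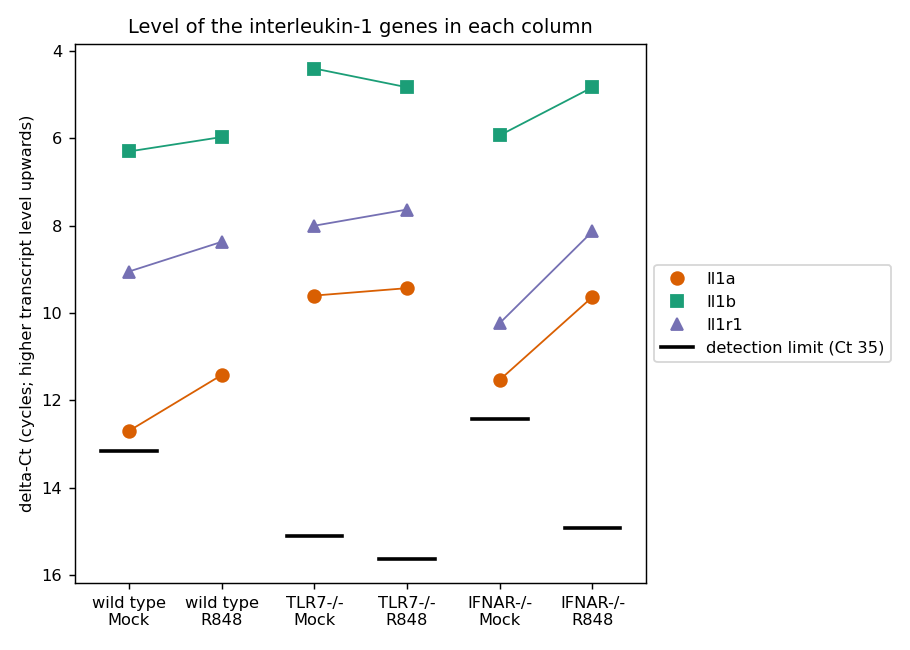
Delta-Ct of *Il1a*, *Il1b* and *Il1r1* (y axis, in cycles, reversed so that higher transcript levels are at the top) in the 6 columns, with a line joining Mock and R848 of each strain and a black bar at the level of a Ct of 35 where it is known. *Il1b* was the highest and *Il1a* the lowest of the 3 genes in every column, and *Il1a* in wild-type Mock (12.70) lay just above the limit of 13.15.

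In wild type, the comparison asked what 7 days of TLR7 stimulation do to these transcripts. *Il1a* was 2.43-fold higher with R848 (log2 difference 1.28), *Il1r1* differed by 0.68 and *Il1b* by 0.33, both within 2-fold. So 1 of 3 members was at least 2-fold higher and none lower, on a plate where 38.1% of the 84 genes were at least 2-fold higher and 13.1% at least 2-fold lower. The median log2 difference of the plate was 0.41, which *Il1b* did not reach, and *Il1a* ranked 26th from the top. This median and rank count 5 genes at the Ct limit, whose direction is open, at the difference of their printed delta-Ct. Had 1 wild-type Mock experiment been at the Ct limit for *Il1a*, the ratio would be a lower bound. The authors' deposited table gives the same ratio of 2.43 for *Il1a*, with 1.26 for *Il1b* and 1.61 for *Il1r1*. The call for *Il1a* was lost with all 5 housekeeping genes of the plate as reference (0.78) and after centring each column on its median gene (0.05).

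In TLR7-/- spleen, which tests whether the response needs the R848 receptor, no member reached 2-fold. The log2 difference was 0.17 for *Il1a* (-0.05 after centring on column medians), 0.37 for *Il1r1* and -0.43 for *Il1b*. Few genes of the plate moved here: 4.76% were at least 2-fold higher and 3.57% at least 2-fold lower, with a median of 0.07. With the 3 reference genes, *Il1b* was thus lower with R848 in this strain alone, although in wild type it turned lower with 5 housekeeping genes (-0.17). Its own Ct was nearly the same in both columns, 24.30 in Mock and 24.20 in R848, while the reference genes moved from 19.90 to 19.37.

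In IFNAR-/- spleen, which asks how far the response depends on type I interferon signalling, all 3 members were at least 2-fold higher with R848, a direction that *Il1a* (-0.15) and *Il1b* (-0.95) lost after centring on column medians, with *Il1r1* at 0.05. *Il1r1* was 4.29-fold higher (log2 difference 2.10), *Il1a* 3.73-fold (1.90) and *Il1b* 2.14-fold (1.10). Genes at least 2-fold higher made up 53.6% of the plate and those at least 2-fold lower 2.38%, and the median difference was 1.25, above that of *Il1b*. That median counts 9 genes at the Ct limit, whose direction is open, at -2.50, the difference of their printed delta-Ct, which draws it down. After subtracting this median, an alternative chosen after seeing the data, *Il1r1* stood at 0.85, *Il1a* at 0.65 and *Il1b* at -0.15, none of them 2-fold. The Mock column here is the one with the latest reference Ct, and the part this had in the responses was not tested.

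**Figure D2:**
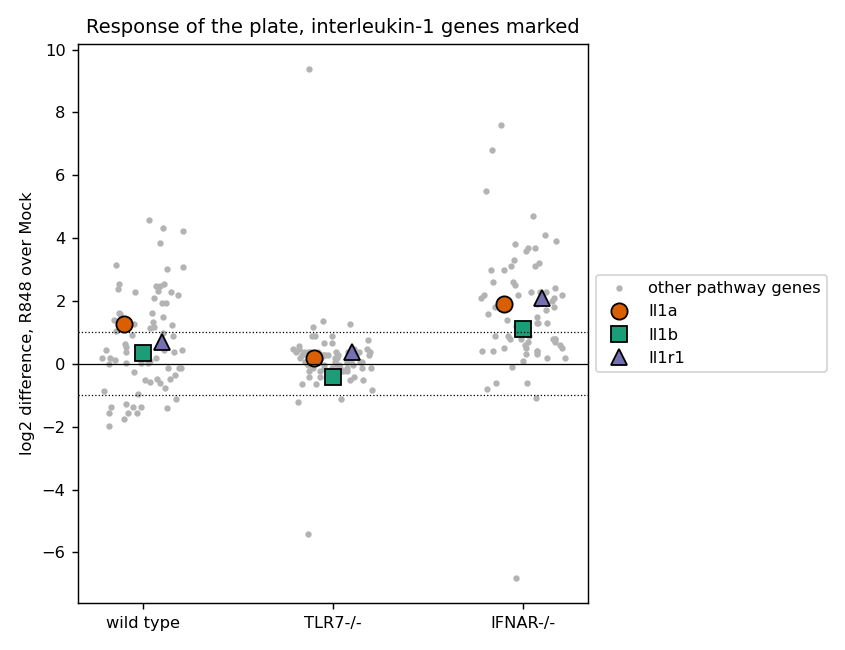
Log2 difference of R848 over Mock (y axis) in each strain for the 3 interleukin-1 genes and, in grey, the other pathway genes with a known direction, some of which are limits because a column was at a Ct of 35 (sideways spread is for legibility, and dotted lines mark 2-fold). The interleukin-1 genes lie inside the cloud of the plate in all 3 strains, with *Il1b* the lowest of the 3 each time.

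Responses differed between strains by about as much as those of the plate at large. *Il1a* responded more in wild type than in TLR7-/- spleen by 1.11, *Il1b* by 0.76 and *Il1r1* by 0.31, where the median over 75 genes measured in all 4 columns was 0.56. IFNAR-/- exceeded TLR7-/- by 1.73 for *Il1a* and for *Il1r1* and by 1.53 for *Il1b*, beside a median of 1.43 over 69 genes. IFNAR-/- exceeded wild type by 1.42 for *Il1r1*, 0.77 for *Il1b* and 0.62 for *Il1a*, beside a median of 0.82. These comparisons share columns with each other and are not independent, and none was tested.

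The balance of the ligands can be read without any reference gene, because the reference cancels in the gap between 2 genes of a column. The delta-Ct of *Il1a* minus that of *Il1b* was 6.40 cycles in Mock and 5.45 in R848 in wild type. It was 5.20 and 4.60 in TLR7-/- Mock and R848, and 5.60 and 4.80 in IFNAR-/- Mock and R848. *Il1b* was the more abundant reading throughout, by 24.3-fold to 84.4-fold if both primer pairs amplify equally well, which is not known. With R848 the gap was narrower in all 3 strains, by 0.95 cycles in wild type, 0.60 in TLR7-/- and 0.80 in IFNAR-/-. In other words *Il1a* was higher relative to *Il1b* by 1.93-fold, 1.52-fold and 1.74-fold, each less than 2-fold and the TLR7-/- strain included. The wild-type Mock gap rests on the *Il1a* reading next to the Ct limit and would be wider if 1 experiment had been at it.

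The receptor also came closer to *Il1b* with R848. The delta-Ct of *Il1r1* minus that of *Il1b* went from 2.75 in Mock to 2.40 in R848 in wild type, from 3.60 to 2.80 in TLR7-/- and from 4.30 to 3.30 in IFNAR-/-. These are changes of 0.35, 0.80 and 1.00 cycles in the same direction. *Il1a* against *Il1r1* showed no common direction: the gap was 3.65 in Mock and 3.05 in R848 in wild type, but 1.60 in TLR7-/- Mock and 1.30 in IFNAR-/- Mock, each 0.20 cycles wider in R848. *Il1b* therefore had the lowest response of the 3 genes in each strain, whatever the reference. Wild-type spleen stood apart in the level of *Il1a*, with a gap to *Il1r1* of at least 3.05 cycles where both deficient strains had at most 1.80.

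**Figure D3:**
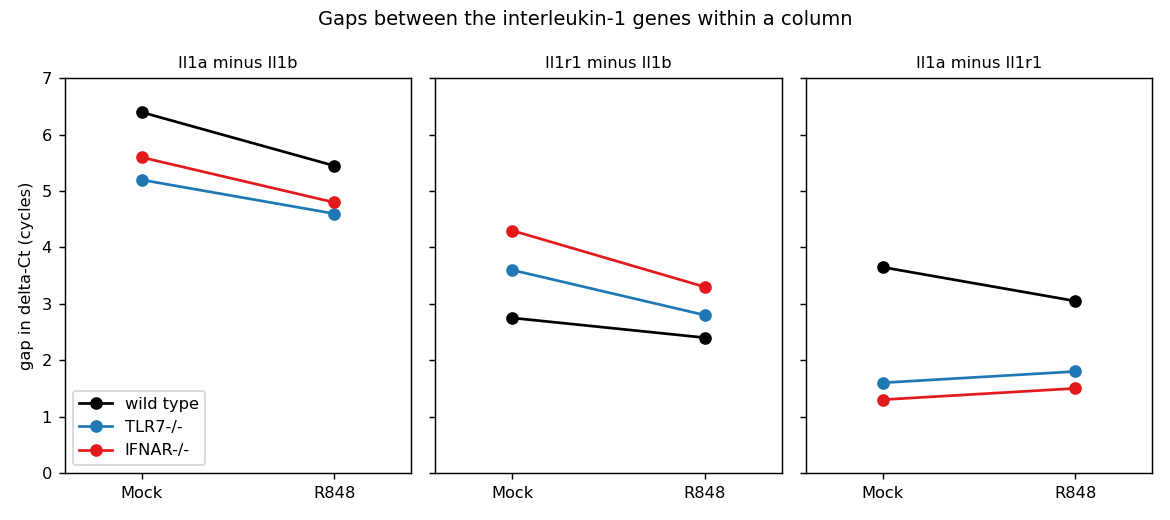
Gap in delta-Ct (y axis, in cycles) between pairs of interleukin-1 genes in Mock and R848 columns of each strain, a measure from which the reference genes cancel. *Il1a* and *Il1r1* both came closer to *Il1b* with R848 in all 3 strains, while *Il1a* and *Il1r1* changed by 0.20 or -0.60 relative to each other.

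Among Mock columns, both ligands were lowest in wild type. TLR7-/- Mock exceeded wild-type Mock 8.57-fold for *Il1a*, 3.73-fold for *Il1b* and 2.07-fold for *Il1r1*, where 48.8% of the plate was at least 2-fold higher and 4.76% at least 2-fold lower. *Il1a* had the fifth highest ratio of 84 genes by printed delta-Ct, with 6 genes open, at a log2 difference of 3.10 against a plate median of 0.93. Its wild-type Mock reading had a mean Ct of 34.55, next to the limit, so this ratio may be a lower bound. *Il1r1* was short of 2-fold with *Hprt1* alone (0.80), with 5 housekeeping genes (0.62) and after centring on column medians (0.03), where *Il1b* stood at 0.88. IFNAR-/- Mock exceeded wild-type Mock 2.25-fold for *Il1a*, where 4.76% of the plate was at least 2-fold higher. By printed delta-Ct this was the third highest ratio, but 8 genes at the Ct limit have an open direction, so the rank is not settled. Both *Il1a* readings in the 2.25-fold ratio had a Ct above 33. *Il1r1* went the other way and was 2.27-fold lower in IFNAR-/- Mock, as were 31% of genes by at least 2-fold, and *Il1b* differed by 0.37 (1.13 after centring on column medians). With *Hsp90ab1* alone, all 5 housekeeping genes or column medians, *Il1r1* stood at -0.90, -0.94 and -0.43, short of 2-fold. TLR7-/- Mock exceeded IFNAR-/- Mock by 1.93 for *Il1a*, 1.53 for *Il1b* and 2.23 for *Il1r1*, where 60.7% of the plate was at least 2-fold higher, 1.19% at least 2-fold lower, and the median was 1.58. After centring on column medians these became 0.15, -0.25 and 0.45, so the direction of *Il1b* turned.

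With R848 both ligands were again lowest in wild type, and the deficient strains resembled each other. *Il1a* was 3.97-fold higher in TLR7-/- and 3.46-fold higher in IFNAR-/- than in wild type, and *Il1b* 2.20-fold higher in each. *Il1r1* was within 2-fold, at log2 differences of 0.74 and 0.24, the latter being 0.00 with *Hprt1* alone and -0.13 after subtracting the plate's median difference. With *Hprt1* alone *Il1b* exceeded wild type by 0.90 in IFNAR-/-, short of 2-fold. After subtracting the plate's median difference *Il1b* exceeded wild type by 0.75 in TLR7-/- and 0.78 in IFNAR-/-, both short of 2-fold. Of the plate, 29.8% was at least 2-fold higher in each of these comparisons, which share the wild-type column, and 14.3% and 15.5% at least 2-fold lower. TLR7-/- and IFNAR-/- R848 columns differed by 0.20 for *Il1a*, 0.00 for *Il1b* and 0.50 for *Il1r1*, where 10.7% of the plate was at least 2-fold higher and 8.33% at least 2-fold lower. Under the 5 planned scalings, *Il1a* stayed at least 2-fold higher in the deficient strains than in wild type among R848 columns, between 1.55 and 2.25 on the log2 scale.

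Genes whose levels ran most like each member were found by the root mean square difference after centring each gene on its mean over the 6 columns, among 68 other genes never at the Ct limit. *Il1b* had *Ifng*, the T and NK cell cytokine interferon gamma, as its nearest gene at 0.08 cycles (r = 0.99), where the median gene stood at 0.75. The delta-Ct of *Ifng* was 10.55, 10.17, 8.80, 9.03, 10.33 and 9.13 in wild-type, TLR7-/- and IFNAR-/- spleen, Mock before R848 in each. It exceeded that of *Il1b* by 4.20 to 4.40 cycles in every column, so the pair kept its distance within 0.20 cycles. The next were *Chuk*, an IKK kinase (0.28), and *Tbk1*, a kinase of interferon induction (0.29). *Il1a* was nearest to *Tlr2*, a receptor for bacterial lipoproteins (0.35, r = 0.97), *Mapk9* (0.49) and *Tlr8* (0.56), with *Il1b* in seventh place at 0.59. *Il1r1* was nearest to *Rela*, the p65 subunit of NF-kB (0.16, r = 0.98), then *Map2k4* (0.31) and *Irak2* (0.32), with *Il1b* at 0.63 and *Il1a* at 0.88. All points share their reference genes, whose Ct was late in wild-type Mock and IFNAR-/- Mock, so these correlations over 6 columns are descriptions only.

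**Figure D4:**
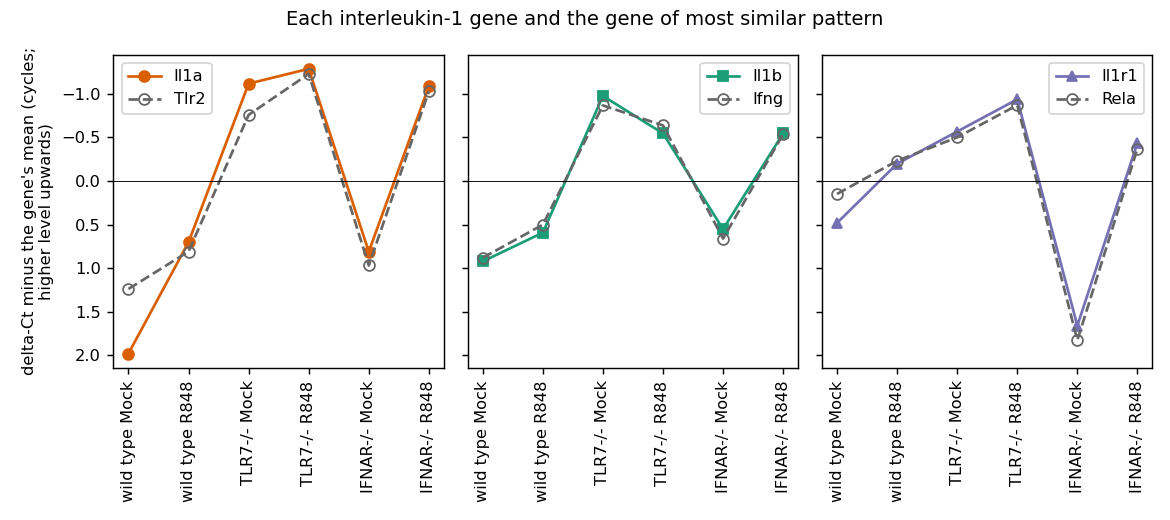
Delta-Ct minus the gene's own mean over 6 columns (y axis, in cycles, reversed so that higher levels are at the top) for each interleukin-1 gene and the gene of most similar pattern. *Ifng* follows *Il1b* at a distance that varies by only 0.20 cycles, *Rela* follows *Il1r1* within 0.50, and *Tlr2* follows *Il1a* within 1.10.

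Downstream of the receptor, 9 of the 15 listed genes of IL-1 receptor signalling were on the plate. In wild type 4 of the 9 were at least 2-fold higher with R848, on a plate where 38.1% of all genes were, none was lower and *Irak1*, at the Ct limit in Mock, had an open direction. The median log2 difference of the 9 was 0.98, beside 0.41 for the plate, with open genes counted in both at the difference of their printed delta-Ct. The 4 higher genes were *Tollip*, an adaptor that restrains IRAK1 (8.46-fold), *Traf6*, the ubiquitin ligase of the pathway (8.17-fold), *Myd88* (5.58-fold) and *Peli1*, a ubiquitin ligase that acts on IRAK proteins (2.43-fold). In IFNAR-/- spleen 6 of 9 were higher, on a plate where 53.6% were, with *Irak1* again open. They were *Myd88* (9.19-fold), *Tollip* (6.06-fold), *Irak2* (4.92-fold), *Traf6* (3.48-fold), and *Ube2v1* (2.83-fold) and *Ube2n* (2.30-fold), the enzyme pair that builds the chains TRAF6 attaches. Over the 8 with a known direction the median was 1.65. The plate's median of 1.25 counts open genes at their printed difference, so these 2 medians are not alike. With *Irak1* counted in the same way, the list's median was lower, though still above the plate's. In TLR7-/- spleen none of the 8 with a known direction was 2-fold away from Mock, and the median of all 9 was 0.17, beside 0.07 for the plate. *Il1r1* itself, at 0.68, 0.37 and 2.10, lay below the list's median in wild type and above it in both deficient strains.

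The kinase and NF-kB genes that IL-1 and TLRs share had 6 of 11 members at least 2-fold higher in wild type, 1 of 11 in TLR7-/- and 9 of 11 in IFNAR-/-. The plate's shares of genes higher were 38.1%, 4.76% and 53.6%, and those of genes lower 13.1%, 3.57% and 2.38%. *Jun* (5.58-fold and 17.1-fold), *Nfkb1* (5.03-fold and 13.0-fold), *Mapk9*, *Mapk8*, *Map2k4* and *Map2k3* were higher in both wild type and IFNAR-/-. *Ikbkb*, *Rela* and *Fos* were so in IFNAR-/-, *Map2k3* was the 1 gene in TLR7-/- (2.58-fold), and *Nfkbia*, the NF-kB inhibitor, was 2.97-fold lower in wild type. Of 7 genes that IL-1 is known to induce, wild type had 1 higher (*Tnfaip3*, 4.23-fold), 3 lower and 2 open. The lower ones were *Csf2* and *Cebpb* (2.58-fold each) and *Il6* (2.17-fold). TLR7-/- had *Ptgs2* higher (2.25-fold) and *Ccl2* lower (43.1-fold). IFNAR-/- had *Ccl2* (at least 111-fold), *Il6* (at least 13.9-fold) and *Tnfaip3* (5.66-fold) higher and none lower. The readings of *Ccl2* are in doubt, as are those of *Cd14* in the next well. In both deficient strains *Ccl2* was high, at a delta-Ct of 4.70 in TLR7-/- Mock and 5.63 in IFNAR-/- R848, in the very column where *Cd14* was at the Ct limit. Whether these wells were read correctly is unknown, so their ratios may not be expression changes. Without *Ccl2*, TLR7-/- had 1 of 6 genes higher and 0 lower, and IFNAR-/- 2 of 6 higher and 0 lower. *Il1b*, itself a gene that IL-1 can induce, was within 2-fold in wild type and TLR7-/-. In IFNAR-/- it was 2.14-fold higher, a direction lost after centring on column medians (log2 difference -0.95).

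Markers of the cells that make or sense IL-1 moved in some of the same columns. Of 6 monocyte, macrophage and neutrophil markers, 3 were at least 2-fold higher with R848 in wild type, 1 in TLR7-/- and 4 in IFNAR-/-, with 1 lower in the last, where 38.1%, 4.76% and 53.6% of the plate were higher. The 1 higher in TLR7-/- and the 1 lower in IFNAR-/- were both *Cd14*, whose readings are in doubt. Without it, 2 of 5 were higher in wild type, 0 of 5 in TLR7-/- and 4 of 5 in IFNAR-/-, and none was lower. Their summed level, as a multiple of the reference genes' level, was 0.178 in Mock and 0.295 in R848 in wild type, 0.297 and 0.308 in TLR7-/-, and 0.142 and 0.387 in IFNAR-/-. This sum is on a linear scale and mostly follows *Pglyrp1*, at a delta-Ct of 1.83 to 3.13, where every other marker of the list had 4.53 or more. *Cd14* was at the Ct limit in TLR7-/- Mock and IFNAR-/- R848. Without it the sums were 0.164 and 0.265, 0.297 and 0.289, and 0.139 and 0.387. The 2 lowest sums are thus those of wild-type and IFNAR-/- Mock, which are also the columns where *Il1r1* was lowest and where *Il1a* had a Ct above 33. In delta-Ct, however, *Il1a* was nearly alike in IFNAR-/- Mock (11.53) and wild-type R848 (11.42). *Il1b* was lowest in the wild-type columns, at 6.30 in Mock and 5.97 in R848, with IFNAR-/- Mock close by at 5.93. The sum of wild-type R848 was not among the lowest. Of 3 genes listed as B cell markers, *Btk* was lower in wild type and at the limit in all 4 columns of the deficient strains. Among Mock columns it was at least 2050-fold lower in TLR7-/- and at least 322-fold lower in IFNAR-/- than in wild type. *Ly86* and *Cd86* differed in these comparisons by at most 2.93-fold. Whether *Btk* was read correctly is unknown. It adds to the sums almost only in wild type, so these do not compare B cell levels between wild type and the deficient strains. The summed level of the 3 was 0.278 and 0.171 in wild-type Mock and R848, 0.234 and 0.193 in TLR7-/-, and 0.123 and 0.192 in IFNAR-/-. Whether these 3 genes follow the B cell content of the spleen was not tested. The plate's shares of genes at least 2-fold lower were 13.1% in wild type, 3.57% in TLR7-/- and 2.38% in IFNAR-/-. Of 3 T and NK cell products 2 were lower in wild type and none in TLR7-/-. In IFNAR-/-, where 53.6% of the plate was higher, *Ifng* was higher and *Il2* at the limit. Their summed level ranged from 0.00531 in wild-type R848 to 0.0208 in TLR7-/- R848. It mostly follows *Lta*, at a delta-Ct of 5.73 to 7.87, where *Ifng* and *Il2* had 8.80 or more. The 2 genes listed as stromal and epithelial markers, *Muc13* and *Ppara*, were low, at a summed level of 0.00128 to 0.00282. *Ppara* was at the Ct limit in wild-type Mock and in both IFNAR-/- columns. Whether these 2 genes follow the stromal content of the spleen was not tested, so the sum is not a reading of it. In whole spleen, fewer cells of a type and less RNA per cell cannot be told apart, and the part that cell makeup had in the IL-1 readings was not tested.

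The choice of reference moved all 3 members of a strain up or down together. In wild type *Hsp90ab1* alone added 0.52 and all 5 housekeeping genes took 0.50 off each log2 difference, and centring each column on its median pathway gene took off 1.23. For IFNAR-/- these shifts were 0.40, -0.62 and -2.05, and for TLR7-/- 0.13, -0.11 and -0.22. *Il1a* in wild type accordingly ranged from 0.05 to 1.80 and *Il1r1* from -0.55 to 1.20. *Il1b* ranged from -0.90 to 0.85 in wild type and was as low as -0.95 in IFNAR-/-, so its direction in both strains depends on the reference. In TLR7-/- it was lower with R848 throughout, from -0.65 to -0.30. What did not depend on the reference is the order of the 3 responses within a strain.

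**Figure D5:**
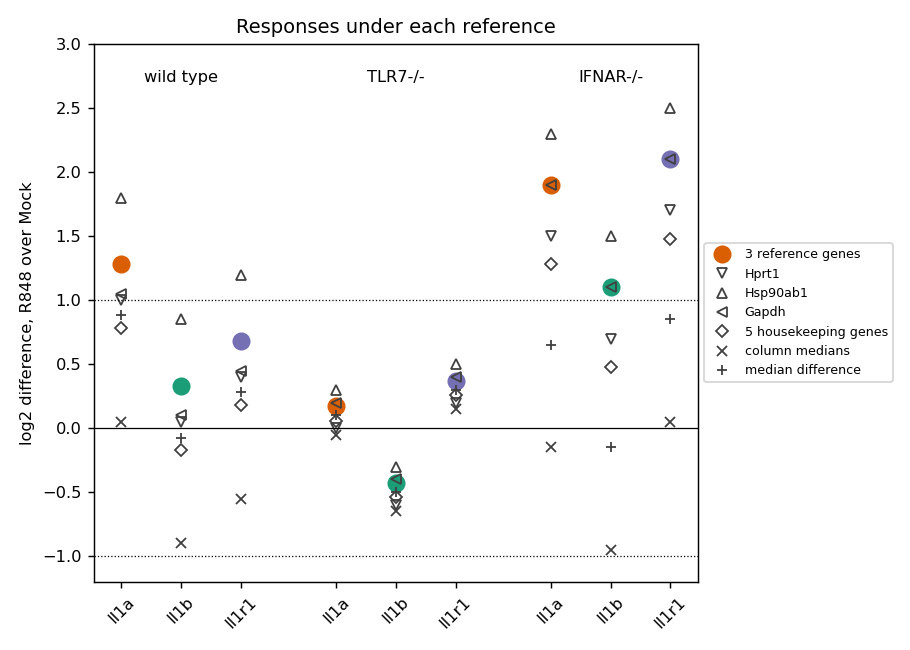
Log2 difference of R848 over Mock (y axis) for each interleukin-1 gene and strain with the 3 reference genes (filled circles) and under 6 other scalings (open symbols, crosses), with dotted lines at 2-fold. In wild type and IFNAR-/- spleen the scalings spread over more than 1 log2 unit, while in TLR7-/- spleen all values of *Il1b* lie below 0 and all values of *Il1r1* above.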

How the data were processed

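Per the labels' protocols, spleen RNA was extracted, pooled from 3 mice per sample, transcribed with oligo(dT) primer and read on a TLR pathway PCR plate. The deposited tables hold, per the file headers, delta-Ct in cycles (a log2 scale) and the ratio of R848 to Mock that the authors derived from it. Wells with no Ct, or one above 35, carry 35 according to the design text. Table names gave the strain and column names the treatment. The 6 delta-Ct columns were used, while 6 per-sample columns holding the same readings on a linear scale were not used. Recomputed ratios lay within 1% plus 0.005 of the authors' deposited ratios for all 89 genes of every table.

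The mean reference Ct of a column is 35 minus its highest delta-Ct where at least 3 genes share it. With a column at that limit, a difference is given as "at least" or its direction as open. Ranks and the medians of the plate and lists count open genes at the difference of their printed delta-Ct. The exception is the printed median of the IL-1 receptor signalling list in IFNAR-/- spleen, which leaves out *Irak1*. A planned test over the wild-type experiments was not run, since they are given only as a mean. Precision of a single reading is unknown.

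The members and gene lists were chosen with earlier results of these data known. Named genes are the members, members of the 3 pathway lists past 2-fold in a strain, and the 3 genes most like each member. *Tlr7*, *Irak1* and the markers *Cd14*, *Pglyrp1*, *Btk*, *Ly86*, *Cd86*, *Il2*, *Lta*, *Muc13* and *Ppara* fall outside this rule and were chosen after their values were seen. List counts without *Ccl2* and *Cd14* were also added after seeing the data. Scalings tried were the reference genes singly, the 5 housekeeping genes together and column medians, then thresholds of 1.5-fold and 3-fold and leaving out genes at the limit or above Ct 33. Added after seeing the data were centring on the median difference and the TLR7-/- Mock column as control. Calls and likeness were tested on simulated data. The simulated calls had no Ct limit and an assumed noise, so they say nothing of readings near the limit. Python 3.11.15 and numpy 2.4.6 were used.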

Additional observations from a re-analysis of the deposited data

Results flagged for a closer look

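With the 3 reference genes, *Il1b* was higher with R848 in wild type (log2 difference 0.33) and IFNAR-/- (1.10) and lower in TLR7-/- (-0.43). This contrast depends on the reference: *Il1b* in wild type was -0.17 with 5 housekeeping genes, and after centring on column medians it was lower in all 3 strains (-0.90 in wild type, -0.95 in IFNAR-/-, -0.65 in TLR7-/-). The responses lie 0.76 apart between wild type and TLR7-/-, and 1.53 apart between IFNAR-/- and TLR7-/-. Each response is 1 value and the differences were not tested. The other 2 interleukin-1 genes were higher with R848 in all 3 strains with the 3 reference genes.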

How the results depend on the processing

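Of 120 values under alternatives, 84 kept their direction and their side of 2-fold, or stayed within 1.5 times for a count. With all 5 housekeeping genes, the log2 differences in wild type were 0.78 for *Il1a* and -0.17 for *Il1b*, and *Il1b* in IFNAR-/- was 0.48 (0.70 with *Hprt1* alone). Centring each column on its median gene gave 0.05 for *Il1a*, -0.90 for *Il1b* and -0.55 for *Il1r1* in wild type, -0.05 for *Il1a* in TLR7-/-, and -0.15, -0.95 and 0.05 in IFNAR-/-. Centring on the median difference gave 0.88 for *Il1a* and -0.08 for *Il1b* in wild type, and 0.65, -0.15 and 0.85 in IFNAR-/-. *Hsp90ab1* alone took *Il1r1* in wild type to 1.20. With TLR7-/- Mock as the control, chosen after seeing the data, wild-type R848 stood at -1.82, -1.57 and -0.37 and IFNAR-/- R848 at -0.03, -0.43 and -0.13 for *Il1a*, *Il1b* and *Il1r1*.

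The count of members past 2-fold in wild type, 1, became 2 with *Hsp90ab1* alone or at 1.5-fold. It became 0 with 5 housekeeping genes, after either centring, at 3-fold, or without genes above Ct 33. In IFNAR-/- the 3 members became 0 after either centring, and the 6 signalling genes became 3, of which 2 were lower after centring on column medians. In TLR7-/- the signalling count of 0 became 1 with *Hsp90ab1* alone or at 1.5-fold. Each other reference or centring moved all genes of a strain by the same shift, and which scaling is the right one was not tested. For the other control the cause was not tested either.

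No paired analysis was possible because the 2 wild-type experiments are given only as their mean. Leaving out each experiment was not run for the same reason. The Ct limit restricts *Il1a* in wild-type and IFNAR-/- Mock most.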
